A study of Homo sapiens with 4 samples.

Results

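The canonical histone genes encode the proteins around which DNA is wound, and on these arrays they comprised 69 gene names read by 85 probes, out of 43317 names and 58201 probes. They were taken as every gene name of the array design that begins with HIST1H, HIST2H, HIST3H or HIST4H, and they fell into 6 genes for the linker histone H1, 17 for H2A, 19 for H2B, 13 for H3 and 14 for H4. These counts include HIST1H2APS1 and HIST2H2BA, whose current symbols, H2AC2P and H2BP1, are those of pseudogenes. Where a gene had several probes, the probe with the highest mean log2 signal over the 4 arrays stood for it. That choice used the brightness of a probe and not its change.

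Human cancer cells were transfected with the microRNA miR-891b or with NC1, a negative control, and total RNA was measured on Agilent 1-colour (Cy3) arrays. The cells were HCT116, an established colorectal cancer line grown in McCoy's 5A medium, and A549, an established lung cancer line grown in DMEM. Both media were supplemented with serum, and the reagent Dharmafect1 was used for every transfection, controls included. Each line was thus sampled once with miR-891b and once with NC1, which made 4 groups of 1 array, each from 100 ng of RNA. The amount of RNA transfected and the time to harvest are not given in the sources used here. Both arrays of a line lay on the same slide, so the line, its medium and the slide cannot be told apart. With 1 array in a group no difference within a line has a replicate check, and a change was called by size alone, at 2-fold or more (1 on the log2 scale).

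Canonical histones are made in bulk during S phase, when new DNA needs new nucleosomes: H2A, H2B, H3 and H4 form the core and H1 binds the linker DNA. Their genes lie in clusters, mostly have no introns, and give messages that end in a conserved stem-loop instead of a poly(A) tail. The stem-loop is bound by SLBP, which directs the cutting, translation and decay of these messages, and some of the genes can also give a longer, polyadenylated message from a site further downstream. The labelling kit named in the labels, Low Input Quick Amp, is generally used with oligo(dT) priming, so it labels a message without a tail less directly than one with a tail.

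The sequence that was transfected and the message ends that the arrays read are shown first. The RefSeq mature miR-891b has its seed, bases 2 to 8, in capitals. In the stem-loops, which were read from the probes themselves, capitals mark the strands that pair with each other.
hsa-miR-891b: uGCAACUUaccugagucauuga
HIST1H2AI: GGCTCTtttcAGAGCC
HIST1H2BF: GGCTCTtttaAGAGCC
HIST1H4K: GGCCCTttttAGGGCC
Of the 85 histone probes, 6 held such a hairpin (a stem of 6 bases that begins GG, a loop of 4 that begins TT, and the stem's reverse complement), against 10 of all 58201 probes. Those for HIST1H2BE, HIST2H3A and HIST1H3H had the same 16 bases as the one for HIST1H2AI. The DNA form of the seed's match, AAGTTGC, stood in 1 histone probe, that for HIST1H3G, and in 229 probes of the whole array. Most of each message lies outside its probe and was not searched.

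The start regions of these genes are shown because many genes of a class moved together in A549 cells. All 69 names were matched to RefSeq genes (67 by accession and 2 by an older symbol), and 62 had a promoter sequence in the RefSeq table for GRCh38.p14, which runs from 250 bases before the start to 50 after it. The lines give positions -120 to -1 before the start of 1 gene of each class, on the gene's strand. Capitals mark the TATA box (TATAAA), the CCAAT box (CCAAT) and the octamer that Oct-1 binds (ATTTGCAT), on either strand.
HIST1H1E: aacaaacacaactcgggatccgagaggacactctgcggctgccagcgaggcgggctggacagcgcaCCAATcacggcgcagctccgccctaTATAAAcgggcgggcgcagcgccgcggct
HIST1H2AB: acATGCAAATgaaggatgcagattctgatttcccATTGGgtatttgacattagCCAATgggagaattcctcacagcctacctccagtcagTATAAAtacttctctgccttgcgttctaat
HIST1H2BB: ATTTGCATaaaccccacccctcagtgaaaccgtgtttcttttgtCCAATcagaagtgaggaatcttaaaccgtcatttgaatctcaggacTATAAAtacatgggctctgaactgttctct
HIST1H3B: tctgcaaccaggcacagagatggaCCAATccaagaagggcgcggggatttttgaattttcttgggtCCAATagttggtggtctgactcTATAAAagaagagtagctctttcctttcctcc
HIST1H4J: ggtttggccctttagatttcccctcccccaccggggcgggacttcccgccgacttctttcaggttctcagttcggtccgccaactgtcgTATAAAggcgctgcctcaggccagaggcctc
They lie at chr6:26156209-26156328 on the plus strand, chr6:26033619-26033738 on the minus strand, chr6:26043714-26043833 on the minus strand, chr6:26032100-26032219 on the minus strand and chr6:27823972-27824091 on the plus strand. Over the whole 300 bases, the octamer was found in 11 of 15 H2A promoters and 14 of 18 H2B promoters, but in 1 of 11 for H3, 0 of 12 for H4 and 0 of 6 for H1, against 1.77% of 35116 promoters in the table. The single H3 match was in HIST1H3D, whose listed start region is the same stretch of DNA as that of HIST1H2AD. Start regions of neighbouring H2A and H2B genes on opposite strands can overlap too. Those of HIST1H2AA (chr6:25726513-25726812) and HIST1H2BA (chr6:25726527-25726826) did so. The same octamer can then be counted for both classes, so the H2A and H2B counts are not separate. The CCAAT box was found in every H1, H2A, H2B and H3 promoter matched and in 3 of 12 H4 promoters, against 34.61% of the table. The TATA box was found in 41 of the 62, against 11.53%. Matches on both strands were counted, no motif is contained in another, and a match describes the sequence only.

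Most histone genes gave strong signals. Levels are given as log2 processed signals relative to the 75th percentile of an array's gene probes, so a gene at 0 lies at that percentile. Of the 69 genes, 58 were well above background on all 4 arrays by the mark that the scanner software sets (3 for H1, 15 for H2A, 14 for H2B, 13 for H3 and 13 for H4), 59 were so on both HCT116 arrays and 62 on both A549 arrays. Another 3 (HIST1H2APS1, HIST1H2BA and HIST1H4G) were above background on 1 array and 3 (HIST1H1A, HIST1H1T and HIST2H2BA) on none, and no histone probe was saturated. The depth of the arrays was similar: the signal at the 75th percentile was between 54.9 and 74.8, and between 26010 and 29258 probes were well above background. The repeated spots of a probe on 1 array bound the technical error only, with a median SD of the miR-891b minus NC1 difference of 0.06 in HCT116 (276 probes) and 0.07 in A549 (287 probes).

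In HCT116 cells the histone genes hardly moved. The median change, miR-891b minus NC1, was -0.02 over the 59 genes measured, beside -0.04 over all 19104 genes measured, and 44 of the 59 lay within 0.2 of zero. No histone gene was 2-fold lower or higher, where 0.843% of all measured genes were lower and 1.16% higher. The changes ran from -0.50 for HIST3H2A, an H2A gene outside the main cluster, to 0.56 for HIST1H4J. By class the medians were -0.11 for H1, 0.0052 for H2A, -0.07 for H2B, -0.09 for H3 and 0.12 for H4. Of all 19104 genes measured, 10595 were below zero. Of the H4 genes 11 of 13 were above zero, and 12 of 13 with quantile normalization, normexp or median scaling. Of the H3 genes 12 of 13 were below zero, but 8 with quantile normalization, 8 with normexp and 9 with median scaling, so their sign rests on the scaling.

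In A549 cells most histone genes were lower with miR-891b. The median change over the 62 genes measured was -1.32, a 2.49-fold lower signal, beside -0.06 over all 21337 genes measured. Of the 62, 39 (62.9%) were at least 2-fold lower and 0 were 2-fold higher. Among all measured genes 5.57% were lower and 4.01% higher by that fold. Below zero were 59 of the 62 (57 with quantile normalization or normexp), beside 11865 of all 21337 genes. Of the 58 genes measured in both lines, 56 had a lower change in A549 than in HCT116, a count that was not made over all genes. In a bulk sample, fewer cells in S phase and less histone RNA in each cell cannot be told apart.

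**Figure D1:**
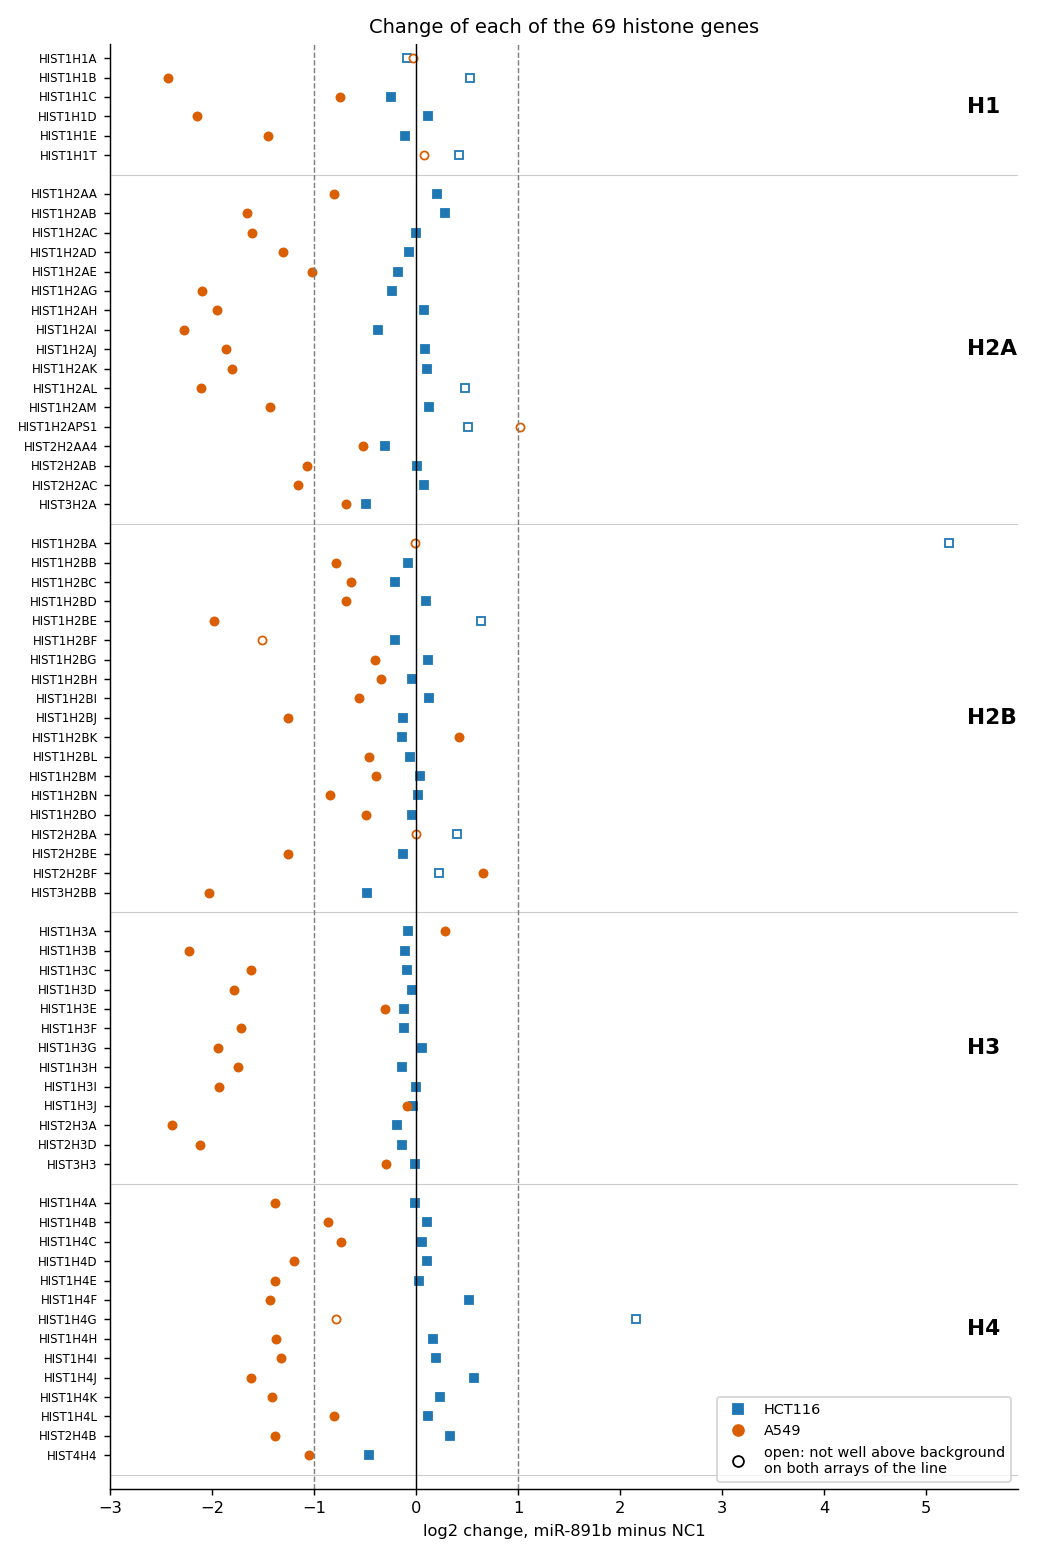
Change (log2, miR-891b minus NC1, horizontal axis) of each of the 69 histone genes, by class, with squares for HCT116 and circles for A549; open symbols are genes not well above background on both arrays of the line, and dashed lines mark 2-fold. The HCT116 squares that are filled lie between -0.50 and 0.56, while 59 of 62 filled A549 circles lie left of zero.

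The classes differed in size. In A549 the median was -1.80 for H1 (3 of 4 genes at least 2-fold lower), -1.53 for H2A (13 of 16), -1.75 for H3 (9 of 13) and -1.37 for H4 (10 of 13), but -0.60 for H2B (4 of 16). The classes are small and their genes sit on the same pair of arrays, so these medians describe the arrays and no test was made between them.

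**Figure D2:**
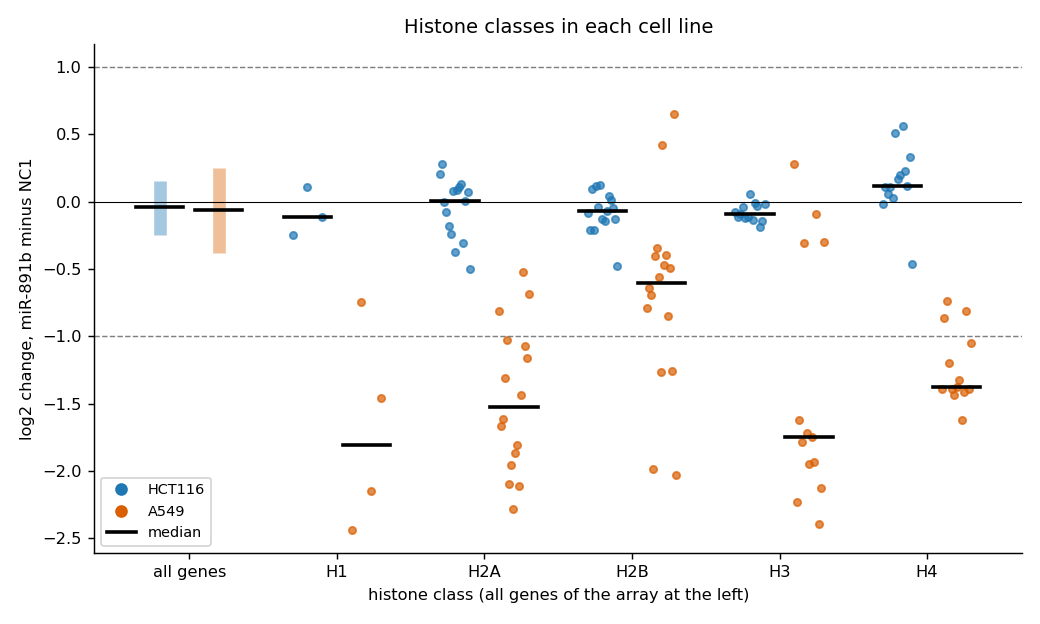
Change (log2, miR-891b minus NC1, vertical axis) of the measured genes of each histone class, with 1 point a gene and a black bar at the median; the bars at the left span the 25th to 75th percentile of all measured genes. The A549 medians of H1, H2A, H3 and H4 lie below the dashed line at -1, and that of H2B lies at -0.60.

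Linker histone genes differed among themselves in how their levels compared between the lines. HIST1H1C, an abundant H1 subtype, had levels of 6.51 and 6.26 in HCT116 (NC1, then miR-891b) and 6.43 and 5.68 in A549, a change of -0.75 in A549. HIST1H1E had 5.21 and 5.10 in HCT116 and 5.63 and 4.18 in A549, a 2.75-fold lower signal with miR-891b. Both were within 0.25 of their NC1 level in HCT116, and both miR-891b levels in A549 were the lowest of the 4.
HIST1H1D had 2.03 and 2.14 in HCT116 but 6.30 and 4.15 in A549, so both A549 arrays were above both HCT116 arrays although the signal was 4.44-fold lower with miR-891b. HIST1H1B was not well above background on either HCT116 array and had 1.67 and -0.76 in A549, a 5.41-fold lower signal with miR-891b, the lowest change of all histone genes measured. Its signal on A549 NC1 was at least 37.25-fold higher than on HCT116 NC1. A bound of this kind sets the bright array against the lowest signal that counted as well above background on the dim array, or against the probe's own signal where that is higher. HIST1H1A and HIST1H1T, the latter a testis H1, were not well above background on any array.

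Of the H2A genes, HIST1H2AJ and HIST1H2AK had the brightest probes. Here and in the other classes the brightest probes are given because they are the best measured, and brightness does not rank the messages by abundance. HIST1H2AJ had 7.43 and 7.52 in HCT116 and 7.04 and 5.18 in A549. HIST1H2AK had 7.24 and 7.35 in HCT116 and 6.86 and 5.06 in A549. In both, the 2 HCT116 arrays and the A549 NC1 array lay within 0.5 of each other and the A549 miR-891b array lay below them, 3.65-fold and 3.49-fold lower than A549 NC1. The probes of these paralogs are close: that for HIST1H2AK shares 53 of 60 aligned bases with the one for HIST1H2AD and 51 with the one for HIST1H2AJ, so the messages of neighbours may be read by each other's probes, and the values of such genes are uncertain as separate measurements.
The lowest changes among H2A genes in A549 were -2.28 for HIST1H2AI, -2.11 for HIST1H2AL and -2.10 for HIST1H2AG. HIST1H2AH changed by -1.95, HIST1H2AJ by -1.87, HIST1H2AK by -1.80, HIST1H2AB by -1.66 and HIST1H2AC by -1.61. HIST1H2AI had 2.93 and 2.56 in HCT116 and 3.28 and 1.00 in A549. HIST1H2AM (-1.44), HIST1H2AD (-1.31), HIST2H2AC (-1.16), HIST2H2AB (-1.07) and HIST1H2AE (-1.03) were also past 2-fold. With normexp background correction and quantile normalization, HIST1H2AL (-0.80), HIST2H2AC (-0.96), HIST2H2AB (-0.77) and HIST1H2AE (-0.74) were under it. The 3 H2A genes that were measured and not 2-fold lower were HIST1H2AA (-0.81), HIST3H2A (-0.69) and HIST2H2AA4 (-0.52). HIST1H2AL had 0.33 and -1.79 in A549 and was not well above background on the HCT116 arrays, so A549 NC1 was at least 14.7-fold above HCT116 NC1.

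The H2B genes moved less. The brightest probes were those of HIST1H2BL, HIST1H2BK and HIST1H2BH, and HIST1H2BK is taken up with the downstream probes. HIST1H2BL had 5.28 and 5.22 in HCT116 and 5.37 and 4.90 in A549. HIST1H2BH had 4.70 and 4.66 in HCT116 and 4.74 and 4.40 in A549. Their A549 changes, -0.47 and -0.35, were small beside those of the H2A genes but the miR-891b array was still the lowest of the 4 for each.
Only HIST3H2BB (-2.03), HIST1H2BE (-1.99), HIST1H2BJ (-1.26) and HIST2H2BE (-1.26) were at least 2-fold lower in A549 among the 16 H2B genes measured, in the main setting. HIST3H2BB, which lies in a small cluster on chromosome 1, had 0.53 and 0.05 in HCT116 and -0.37 and -2.41 in A549. With normexp background correction and quantile normalization the A549 change of HIST3H2BB was -0.60 and that of HIST2H2BE was -0.45, so both were under 2-fold in that setting.
HIST1H2BE and HIST1H2BF, which encode H2B from neighbouring parts of the large cluster, were each seen in 1 line. HIST1H2BE had 1.88 and -0.11 in A549 and was not well above background in HCT116, at least 42.9-fold lower on NC1. HIST1H2BF had 1.67 and 1.46 in HCT116 and was not well above background in A549, at least 49.5-fold lower on NC1. Both probes include the stem-loop, and the files give the probe of HIST1H2BE at chr6:26184399-26184458 and that of HIST1H2BF at chr6:26200153-26200212 (hg19).

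**Figure D3:**
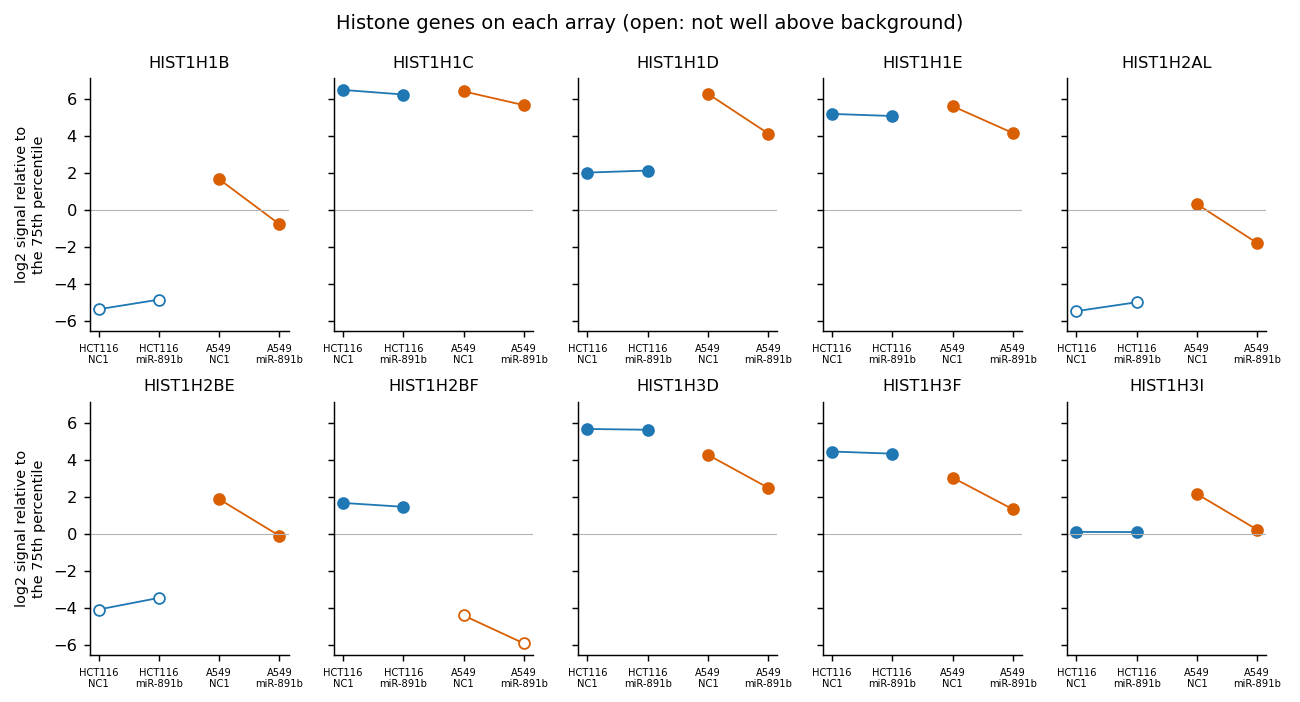
Level (log2 signal relative to the array's 75th percentile, vertical axis) of 10 histone genes on each of the 4 arrays, with HCT116 in blue, A549 in orange and open symbols for genes not well above background. HIST1H1B, HIST1H2AL and HIST1H2BE are above background only in A549, and HIST1H2BF only in HCT116. Every A549 line drawn slopes down from NC1 to miR-891b, but that of HIST1H2BF joins values not well above background. The measured genes that were higher with miR-891b in A549 (HIST1H3A, HIST1H2BK and HIST2H2BF) are not among the 10.

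H2A and H2B genes often lie head to head around a shared start region, which allowed neighbours to be set side by side. In the RefSeq annotation, 12 such pairs had starts at most 1000 bases apart, on opposite strands, and in 10 of them both genes were measured in A549. In 8 of the 10 the H2A gene had the lower change, by a median of -0.95 over the 10. The pair HIST1H2AI and HIST1H2BL changed by -2.28 and -0.47, the pair HIST1H2AJ and HIST1H2BM by -1.87 and -0.40, and the pair HIST1H2AM and HIST1H2BO by -1.44 and -0.49. The exceptions were outside the large cluster: HIST2H2AC and HIST2H2BE changed by -1.16 and -1.26, and HIST3H2A and HIST3H2BB by -0.69 and -2.03. The HIST1H2BK value in its pair with HIST1H2AH came from the distal probe. In HCT116 the H2A gene had the lower change in 4 of 11 pairs, with a median difference of 0.09. The pairing was chosen after the class medians were seen, and it is given as a description.

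The H3 genes split into a majority that was strongly lower in A549 and a minority that was not. HIST3H3, a testis H3 gene, had 7.94 and 7.92 in HCT116 and 7.62 and 7.32 in A549. HIST2H3D had 7.41 and 7.27 in HCT116 and 6.93 and 4.81 in A549, a 4.36-fold lower signal with miR-891b. HIST2H3D was therefore lower on the A549 miR-891b array alone, whereas HIST3H3 stayed within 0.7 over the 4 arrays. The HIST3H3 probe shares 44 of 60 aligned bases with the probe for HIST1H3C, and whether it reads messages of other H3 genes was not tested. Other H3 probes are closer: those for HIST1H3F and HIST1H3H share 51 bases, HIST1H3B and HIST1H3J 47, and HIST1H3A and HIST1H3D 46. The values of such H3 genes are likewise uncertain as separate measurements. Leaving out probes that shared 45 or more bases kept 4 of the 13 H3 genes measured in HCT116.
The other H3 genes past 2-fold in A549 were HIST2H3A (-2.39), HIST1H3B (-2.23), HIST1H3G (-1.95), HIST1H3I (-1.94), HIST1H3D (-1.78), HIST1H3H (-1.75), HIST1H3F (-1.72) and HIST1H3C (-1.62). HIST1H3B had 5.47 and 5.36 in HCT116 and 5.35 and 3.12 in A549. HIST1H3G, whose probe holds the seed match, had 4.88 and 4.94 in HCT116 and 4.29 and 2.34 in A549. Besides HIST3H3 (-0.30), HIST1H3E (-0.30) and HIST1H3J (-0.09) were not 2-fold lower in A549, nor was HIST1H3A, at 0.28. HIST1H3A had 4.97 and 4.90 in HCT116 and 4.64 and 4.92 in A549, so its A549 miR-891b array lay level with both HCT116 arrays.

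The H4 genes nearly all encode the same protein, and their A549 changes had the narrowest range of the classes, -1.62 to -0.74. Some of their probes are close, and that for HIST1H4K shares 46 of 60 aligned bases with those for HIST1H4F and HIST2H4B. Such genes are uncertain as separate measurements. HIST1H4C and HIST1H4L had the brightest probes. HIST1H4C had 10.22 and 10.28 in HCT116 and 9.82 and 9.08 in A549. HIST1H4L had 7.94 and 8.06 in HCT116 and 8.04 and 7.23 in A549. Their A549 changes, -0.74 and -0.81, and that of HIST1H4B, -0.86, were the only ones among the 13 measured that did not reach 2-fold at the probe standing for the gene, and the A549 miR-891b array was the lowest of the 4 for HIST1H4C, HIST1H4L and HIST1H4B.
The second probe of HIST1H4L changed by -1.53, and the mean over both was -1.17, past 2-fold. The other 10 lay between -1.62 for HIST1H4J and -1.05 for HIST4H4. HIST1H4J had 5.26 and 5.82 in HCT116 and 5.20 and 3.58 in A549, so its change was the highest of the histone genes in HCT116 and the lowest of the H4 genes in A549. HIST1H4F was similar, with 3.39 and 3.90 in HCT116 and 3.47 and 2.03 in A549. HIST4H4, on chromosome 12, was dim throughout (-1.28 and -1.74 in HCT116, -0.15 and -1.20 in A549), and with normexp and quantile normalization its A549 change was -0.42.

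The genes were also grouped by position in the genome, and position was not tested against class. In A549 the median change was -1.31 for 29 measured genes of the HIST1 cluster below 27 Mb on chromosome 6, -1.44 for 21 beyond it, -1.21 for 8 HIST2 genes and -0.69 for 3 HIST3 genes. Each group held genes past 2-fold (17, 14, 6 and 1 of them).

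At HIST1H2AC, HIST1H2BK and HIST1H4H, the A549 change was higher at a probe far downstream than near the gene's first probe. Of the 15 genes with more than 1 probe, 11 had at least 2 measured in A549, and in 9 of these the probes had the same sign. A probe was called distal where it lay 1000 bases or more downstream of the gene's first probe in the genome (hg19), and there were 6. These distances run along the genome and not along the message. For HIST1H2BK the 2 probes start at positions 141 and 660 of the same listed transcript. HIST1H2AC, known to give polyadenylated messages too, changed by -1.12 and -1.61 at its first 2 probes, in that order. It changed by -0.50 at a probe 14419 bases downstream of the first. HIST1H2BK, another such gene, changed by -0.47 at its first probe and by 0.42 at a probe 8246 bases further on. HIST1H4H changed by -1.37 at its first probe and by 0.32 at one 4211 bases further on, which was above background in A549 only.
The distal probe of HIST2H2BF changed by 0.65 in A549, while the first probe of HIST2H2BF was not well above background. The distal probe of HIST2H2BE was above background only on A549 miR-891b, at -2.75 beside -4.27 on A549 NC1, while the first probe changed by -1.26. The distal probe of HIST1H2AG was measured in neither line. Over the 4 distal probes measured in A549 the median change was 0.37, and 0 of the 4 were 2-fold lower. In HCT116 the 2 distal probes measured changed by 0.26 (HIST1H2AC) and -0.14 (HIST1H2BK).
The probes that include the stem-loop lie at the end of the message without a tail, and all 5 measured in A549 were past 2-fold lower. Their A549 changes were -2.39 for HIST2H3A, -2.28 for HIST1H2AI, -1.99 for HIST1H2BE, -1.91 for HIST1H3H and -1.78 for HIST1H4K, with a median of -1.99. A HIST1H2AI probe without the stem-loop changed by -2.47, lower than any of them, so a change of this size was not particular to these probes. In HCT116 the 5 measured ran from -0.37 for HIST1H2AI to 0.48 for HIST1H4K. Probes of the same gene can differ in what else they read, and no test was made between these sets.

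**Figure D4:**
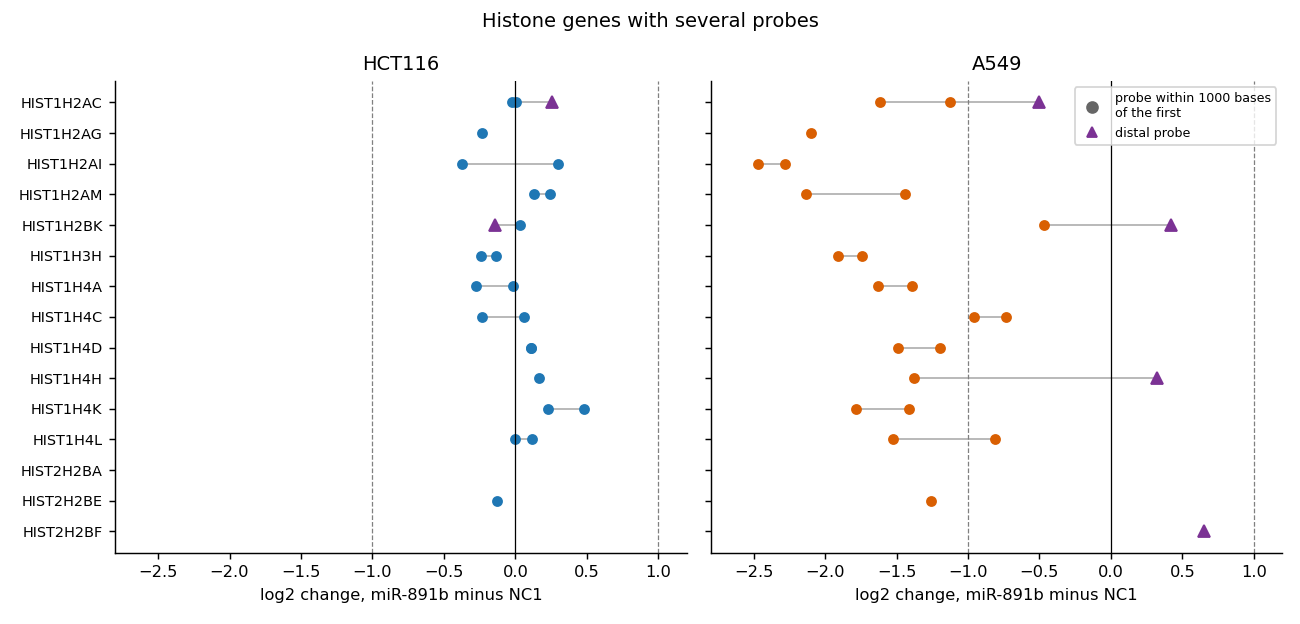
Change (log2, miR-891b minus NC1, horizontal axis) at each measured probe of the histone genes with several probes, in HCT116 (left) and A549 (right). Circles lie within 1000 bases of the gene's first probe in the genome, and triangles are distal probes. In A549 the triangles lie between -0.50 and 0.65, to the right of the circles of the same gene.

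The 8 genes listed as able to make polyadenylated messages had a median A549 change of -0.90, with 4 of 8 at least 2-fold lower. These 4 were HIST1H2AC, HIST1H2BJ (2.28 and 2.15 in HCT116, 2.38 and 1.12 in A549), HIST2H2BE and HIST4H4. HIST1H2BD had 3.24 and 3.33 in HCT116 and 3.69 and 2.99 in A549, and HIST1H2BC had 2.13 and 1.92 in HCT116 and 2.70 and 2.06 in A549, so both were lower in A549 by less than 2-fold. Their probes are close to those of other H2B genes, as given above, so these values are uncertain as separate measurements. HIST1H1C and HIST1H2BK, given above, complete the list. In HCT116 none of the 8 reached 2-fold, where 0.843% of all measured genes were lower and 1.16% higher.

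On the control arrays most of the histone genes measured in both lines had similar levels there. With NC1 the median of A549 minus HCT116 was 0.10 over the 58 genes well above background on both NC1 arrays, with 4 at least 2-fold lower in A549 and 4 higher, where 16.2% of 19218 genes were lower and 11.1% higher. The 4 lower were HIST1H3F (-1.41), HIST1H3D (-1.41), HIST3H2A (-1.08) and HIST1H3H (-1.06), and the 4 higher were HIST1H1D (4.26), HIST1H3I (2.05), HIST4H4 (1.13) and HIST1H2BM (1.04). The class medians were 0.17 for H2A, 0.23 for H4, 0.27 for H2B, 0.42 for H1 and -0.33 for H3. The genes not well above background on 1 of the NC1 arrays are outside these counts, among them HIST1H2BF, HIST1H2BE, HIST1H1B and HIST1H2AL, whose bounds of at least 14.7-fold to 49.5-fold are given above. These differences carry the slide as well as the line.

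A model over both lines, fitted with limma to all 22710 genes that were well above background on at least 2 arrays, gave no call. It estimates 1 miR-891b effect shared by both lines and has 1 residual degree of freedom, which comes from the difference of the change between the lines. The model is therefore poorly placed to call a change seen in A549 alone, which adds to its error. It called 0 genes (0% of those tested) at a Benjamini-Hochberg adjusted p of 0.05, 1214 had an unadjusted p under 0.05, and the smallest adjusted p was 0.793. Of 63 histone genes tested, 0 were called and 2 had an unadjusted p under 0.05. These were HIST3H2BB, which was lower in both lines by 0.48 and 2.03, and HIST4H4, lower in both by 0.46 and 1.05. The difference of the change between the lines has no test in this design.

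Areas of stray signal touched some histone spots. Around each spot, the neighbours no more than 10 rows and 10 columns away that gave no signal above background on the remaining arrays were taken, and the spot was counted where at least 10% of them did so here. This held for 10 of the 69 genes. In HCT116 these were HIST1H1B, HIST1H2BA, HIST1H3A, HIST2H2AB and HIST4H4 with miR-891b (5 genes) and HIST2H2AA4 with NC1. In A549 they were HIST1H2AG, HIST1H2AK, HIST1H2BE and HIST1H2BJ with miR-891b (4 genes) and 0 with NC1, and all 4 were nonetheless lower with miR-891b. Without such probes 32 of 53 genes were 2-fold lower in A549, with a median of -1.33, and 0 of 52 were 2-fold lower or higher in HCT116. HIST1H2BA, a testis H2B gene, was above background only on HCT116 miR-891b, at -0.54 beside -5.76 on NC1, in an area where the share was 13.26%.

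The genes that serve histone production were described by lists, whose counts stand beside 5.57% of all measured genes 2-fold lower and 4.01% higher in A549, and 0.843% lower and 1.16% higher in HCT116. For S phase, 21 of 22 replication genes (MCM2 to MCM7, PCNA, RRM2 and others) were 2-fold lower or more in A549 and 0 higher, with a median of -1.70 and RRM1 at -0.97, and 0 of 22 reached 2-fold in HCT116. The S phase values moved with the histone genes in A549, and their part in the histone result was not tested. Of 9 genes for histone gene transcription, 4 were 2-fold lower in A549: E2F1 (-2.09), CCNE2 (-1.48), CDC25A (-1.44) and CDK2 (-1.22), where cyclin E and CDK2 activate NPAT, the coactivator of histone genes. NPAT itself had -1.01 and -0.75 in HCT116 and -1.34 and -2.14 in A549.
Of 11 measured genes for the 3' end of histone messages, NCBP1 (-1.04) alone was 2-fold lower in A549 (9.1%, near the share of all genes), with a median of -0.32. SLBP, which binds the stem-loop, had 5.17 and 5.15 in HCT116 and 3.89 and 3.40 in A549, a change of -0.49, and its spot also lay in an area of stray signal on 1 array (19.59%). Such areas also held LSM10, ZNF473, SRRT and NCBP2 of the same list, MCM6, GINS2 and PRIM1 of the S phase list, E2F1 and CDK2 of the transcription list, CHAF1B and RBBP4 of the chaperones, and the variants H2AFX and H1FNT. Of 8 genes for decay and translation of these messages, 0 reached 2-fold in A549 (median -0.23), and MIF4GD (-1.17) did in HCT116.
Of 13 genes for chaperones and the acetyltransferase HAT1, 5 were 2-fold lower in A549 (ASF1B at -2.19, SSRP1 at -2.04, CHAF1A at -1.53, RBBP4 at -1.44 and CHAF1B at -1.29) and 1 was higher (ASF1A at 1.17), with a median of -0.96. CHAF1A and CHAF1B are subunits of the complex that places new H3 and H4 behind the replication fork. Of 14 measured variant histones, which are made outside S phase too, 5 were 2-fold lower (H3F3C at -1.64, H2AFJ at -1.55, CENPA at -1.54, H2AFX at -1.34 and H2AFZ at -1.04) and 1 was higher (H2BFM at 1.54), with a median of -0.62. H3F3A, which encodes the replacement histone H3.3, changed by 0.21. In HCT116 none of the chaperones or variants reached 2-fold.

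**Figure D5:**
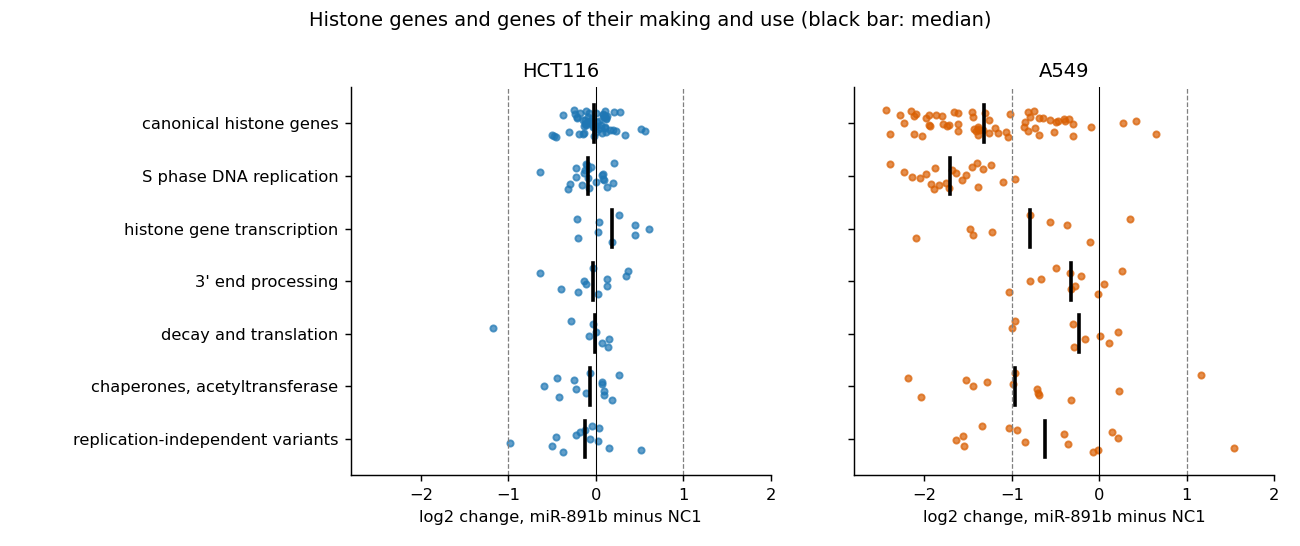
Change (log2, miR-891b minus NC1, horizontal axis) of the measured canonical histone genes and of the genes of 6 lists, in HCT116 (left) and A549 (right), with 1 point a gene and a black bar at the median. In A549 the medians are -1.32 for the histone genes, -1.70 for S phase replication and between -0.96 and -0.23 for the other lists.

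The cell lines' own markers mostly separated the lines as labelled. All 6 A549 markers were higher on both A549 arrays than on either HCT116 array, and 4 of 5 HCT116 markers were higher on both HCT116 arrays. The exception was CDH1, at 3.25 and 2.46 in HCT116 and 3.01 and 2.23 in A549. AKR1B10, an A549 marker at 9.88 and 9.69 there, went from -2.29 with NC1 to 2.18 with miR-891b in HCT116. Of 6 fibroblast markers, COL1A2, COL3A1 and DCN were not well above background on any array, COL1A1 and PDGFRB were on all 4, and LUM was in A549 only, at 1.03 with NC1 and 3.17 with miR-891b.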

How the data were processed

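The scans were quantified with Agilent Feature Extraction 11.5.1.1, per the submitters' processing notes and the file headers, with hg19 probe positions. The intensity values of the deposited scanner files are background-subtracted within each array and not scaled across arrays. A deposited table gives the authors' values on the log2 scale. Its making is not stated, and it equalled the main values here to within 0.0069 (median per array).

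Outlier-marked spots were left out, log2 processed signals were averaged per probe, and each array's 75th percentile was subtracted. A gene counted as measured in a line if both its arrays marked the probe as well above background. The additive model used limma 3.58.1 in R 4.3.3 with Benjamini-Hochberg adjustment. It was tested on simulated data in which both lines had the same change. Other values used Python 3.11.15, numpy 2.4.6 and pandas 2.3.3. The members and lists were chosen with earlier results of these data known. Genes were named by a rule: the 2 with the highest levels in each class, all at least 2-fold changed, seen in 1 line, polyadenylated, or with discordant probes. H3F3B and H2BFS were not found on the array. The variants, processing and decay lists were written from general knowledge. The alternatives were other scalings, filters, folds and probe rules. Columns left unmapped numbered 0.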

Additional observations from a re-analysis of the deposited data

Results flagged for a closer look

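The median change of the H2A genes had opposite signs in the lines, 0.0052 in HCT116 and -1.53 in A549, a difference of -1.53 that was not tested. The H4 genes did too, at 0.12 and -1.37, a difference of -1.49 that was not tested. In both classes the HCT116 value lay close to zero.

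Signals above background only with miR-891b were seen at 3 histone probes outside the counts. HIST1H2BA was at least 8.04-fold higher than NC1 in HCT116, in an area of stray signal. HIST1H2APS1, a pseudogene by its current symbol, was at least 1.23-fold higher in A549. The distal probe of HIST2H2BE was at least 2.31-fold higher in A549.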

How the results depend on the processing

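The A549 result kept its direction under all 11 alternatives to the main processing. Among them, the authors' deposited values nearly equalled the main ones and the rule on 54 shared bases removed no gene, so neither was a separate check. The number of histone genes at least 2-fold lower lay between 32 and 40, apart from 25 of 42 when probes sharing 45 or more of 60 bases with another histone probe were left out (chosen after seeing the data), 22 at 3-fold and 49 at 1.5-fold. The median was -1.04 with normexp (offset 50) and quantile normalization, -1.16 with quantile normalization and -1.18 without the probes sharing 45 bases. Without the filter on dim probes 1 gene was 2-fold higher in A549 and 2 in HCT116, and at 1.5-fold 1 was higher in A549. The cause was not tested, except that the stricter fold and the rule on shared bases admit fewer genes by construction. No histone probe shared 54 bases with the probe of another histone gene, so that rule removed none. Probes were compared only with each other and not with the messages of other genes. Leaving out distal probes, also chosen after seeing the data, gave 39. The HCT116 median stayed within 0.04 of zero. Of single genes in A549, 7 of 62 fell under 2-fold with normexp, 3 with quantile normalization and 2 with median scaling, and with the mean over the probes of a gene HIST1H4H did (-0.53) while HIST1H4L passed it (-1.17). The additive limma model called 0 histone genes in all 4 settings, with 7 at an unadjusted p under 0.05 without the filter. No paired analysis was possible because the labels give 1 sample a group. Dim genes are limited by signal over background.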
